A study of Mus musculus with 6 samples.

Results

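The genes described here are 9 genes of retinoic acid handling, taken by symbol from the 24393 genes in the count lists: the receptors Rara, Rarb and Rarg, the binding proteins Crabp1 and Crabp2, the hydroxylases Cyp26a1 and Cyp26b1, the retinol transporter Stra6 and the retinaldehyde reductase Dhrs3. Poly-A RNA was sequenced from differentiated cultures of KH2, a mouse embryonic stem cell line made for doxycycline-inducible transgenes, with 3 CONTROL and 3 HOXA13 libraries. Both groups are labelled strain C57/BL/6. The HOXA13 cells carried a tagged copy of the human HOXA13 gene under doxycycline control and came from picked, correctly targeted clones. Differentiation toward definitive endoderm, the germ layer of the gut epithelium, ran on M15 cells, a feeder line of mesodermal origin. Doxycycline at 1.25 µg/ml was added on day 4, the fraction that stained for CXCR4 and for E-cadherin was isolated by flow cytometry on day 6, and the sorted cells stayed in doxycycline for a further day. The treatment text is identical for CONTROL and HOXA13 samples, so it does not tell whether CONTROL cells received doxycycline. The methods call the samples biological replicates and do not say whether each came from a clone of its own.

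Cells make retinoic acid from vitamin A. Retinol enters through STRA6, is oxidised to retinaldehyde by retinol dehydrogenases such as RDH10, and then to retinoic acid by the ALDH1A enzymes, while DHRS3 turns retinaldehyde back into retinol. CRABP2 carries retinoic acid to the nuclear receptors RARA, RARB and RARG, which sit on DNA with an RXR partner, and CYP26 enzymes hydroxylate retinoic acid for removal. In the embryo a balance of synthesis and removal patterns the gut and the anterior to posterior axis, and Rarb, Cyp26a1, Crabp2, Stra6 and Dhrs3 are textbook genes that rise when cells meet retinoic acid.

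Rarb and Cyp26a1 are shown with their promoter sequence, because each carries just before its start a direct repeat of receptor half-sites, the kind of sequence through which RAR and RXR bind. RefSeq promoter windows (GRCm38.p6, 250 bases before to 50 bases after a gene start) were searched on both strands for the half-site AGGTCA, or its variants AGTTCA or else GGTTCA or else GGGTCA, followed after 1, 2 or 5 bases by another of the same set in the same direction. A window was given for 8 of the 9 genes, all but Crabp2. In the lines that follow, the 120 bases before the RefSeq start are printed 5′ to 3′ on the strand of the gene, with the half-sites of the matched repeat in capitals. They were placed on mm9 by an exact match.
Rarb, chr14:17407991-17408110, minus strand: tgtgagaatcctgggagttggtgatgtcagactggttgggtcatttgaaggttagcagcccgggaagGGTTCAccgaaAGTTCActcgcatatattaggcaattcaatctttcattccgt
Cyp26a1, chr19:37772178-37772297, plus strand: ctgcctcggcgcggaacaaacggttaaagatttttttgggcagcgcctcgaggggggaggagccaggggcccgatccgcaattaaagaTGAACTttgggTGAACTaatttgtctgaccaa

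The Rarb repeat, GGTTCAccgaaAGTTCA, lies from -53 to -37 relative to the start and reads on the strand of the gene. In the mm9 annotation of GENCODE M1 this stretch lies in an intron of the longer Rarb transcripts and just before the start of the shorter one. The Cyp26a1 repeat, which read on the opposite strand is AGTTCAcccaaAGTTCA, lies from -32 to -16 and just before the annotated gene. Both have 5 bases between the half-sites, and with this spacing 32 of 32851 windows held a match (0.0974%). Any of the spacings was matched by 193 windows (0.588%), and no window of the other 6 genes with one held a match. The half-sites of both repeats were among the variants searched for, so these shares are no test of rarity. A match describes the letters only, and no binding was measured in these libraries.

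The libraries held from 12279884 to 17331638 counts, and 13600 genes passed the expression filter. Levels are given as CPM, the count scaled to the normalised library size, and the lowest level taken as detectable, 3 counts, equals from 0.176 to 0.240 CPM. This floor covers counting error only. As a check of the labels, a row under the human identifier ENSG00000106031, which the lists do not pair with a symbol, was without counts in the CONTROL libraries (0 in each) and was read 2497, 7666 and 6572 times in HOXA13 replicates 1, 2 and 3. Of 12 definitive endoderm markers, Cer1 was at 0 counts in all 6 libraries and Gsc had at most 22 counts. Of the 10 that were tested, 5 were higher and 5 lower in HOXA13. EdgeR called 0 of them at an adjusted p under 0.05, where it called 0.309% of all tested genes. Sox17 had from 13 to 63 counts and the sorting marker Cxcr4 from 30 to 147, while Gata4 had from 191 to 544 and Epcam from 264 to 5375. Eomes, with 82.9 ± 31.3 and 33.1 ± 8.79 CPM (SD, n = 3) in the CONTROL and HOXA13 libraries, had groups that did not overlap, with adjusted p-values of 0.141 in edgeR and 0.00575 in DESeq2. Those of Cdh1, the gene of the sorting marker E-cadherin, did not overlap either, with CONTROL at 192 to 1292 and HOXA13 at 1690 to 1893 CPM, and it had adjusted p-values of 0.351 in edgeR and 0.104 in DESeq2. Their part in the levels of the retinoid genes was not tested. The libraries of the CONTROL group stood apart from each other. Summed over 8 pluripotency markers they held 113, 1254 and 187 CPM, and summed over 18 markers of mesenchyme and of the feeder 10149, 2706 and 8247 CPM, in replicates 1, 2 and 3. HOXA13 replicate 1 stood apart in its group as well. The pluripotency sums were 630, 416 and 395 CPM in HOXA13 replicates 1, 2 and 3, and the mesenchyme and feeder sums 2238, 5733 and 5667 CPM. Y-linked genes gave 8.65 and 134 CPM in CONTROL replicates 1 and 3, 0 in CONTROL replicate 2 and at most 0.469 CPM in the HOXA13 libraries.

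No retinoid gene of the 9 was separated between the groups. Of the 7 that passed the expression filter, 0 passed an adjusted p-value of 0.05 in edgeR (quasi-likelihood test, Benjamini-Hochberg adjustment over all genes), where 0.309% of all tested genes did. At an unadjusted p under 0.05 the count was 1, Rara, where 14.1% of all tested genes were. DESeq2, which called 5.05% of its genes, and limma voom, which called 15.4%, also called 0 of them. In each of the 9 the CONTROL and HOXA13 values overlapped, while 20.0% of tested genes had groups that did not overlap. The log2 fold changes of the 7 lay between -0.99 and 0.45, with a median of 0.06, beside a median of -0.01 over all tested genes. The sign of that median was not stable. Over all 9 genes, fitted without the filter, it was -0.39, and with a library left out it ran from -0.62, without HOXA13 replicate 1, to 0.14, without CONTROL replicate 2. The former fit tested 9 of the genes and the latter 8, so library and gene set changed together. The biological coefficient of variation that edgeR estimated from these libraries was 41.5%. In bulk RNA, fewer cells of a type and less RNA per cell cannot be told apart.

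**Figure D1:**
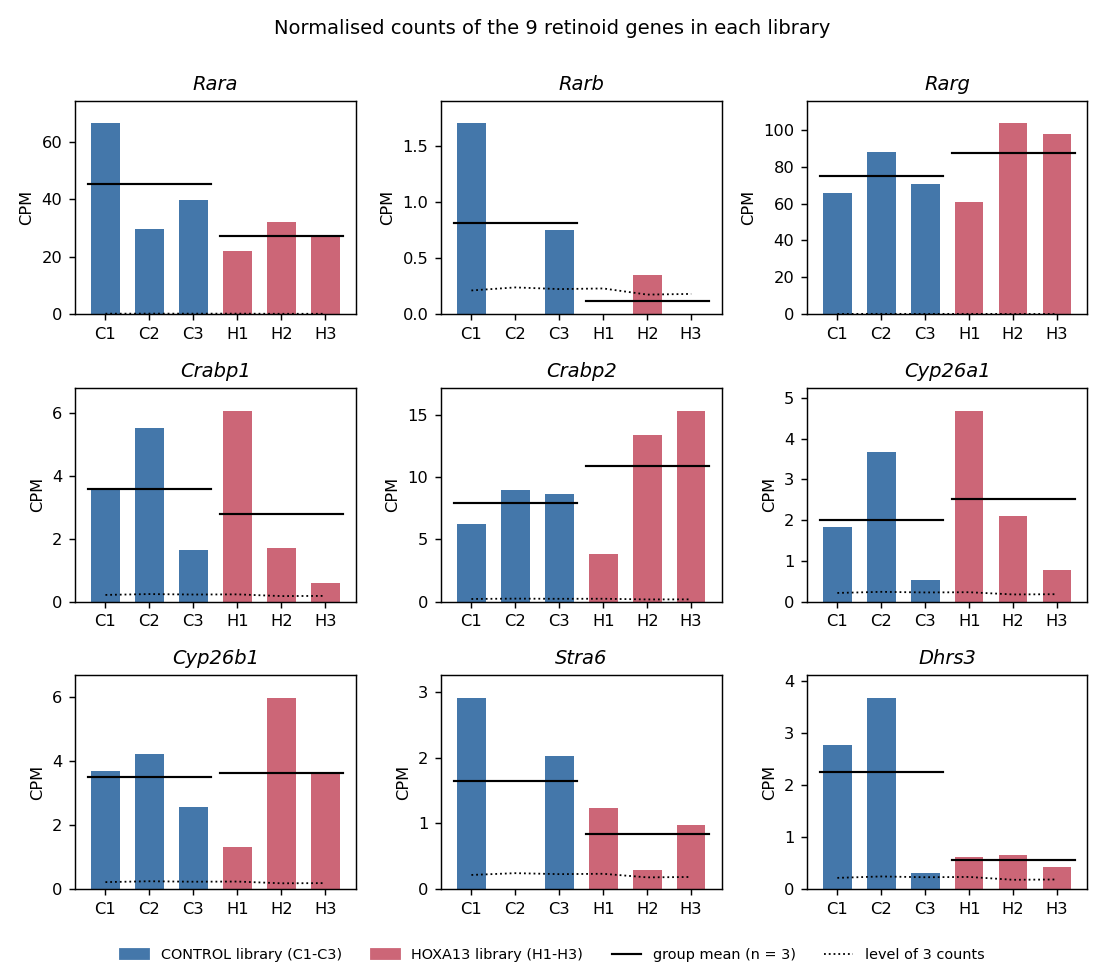
Normalised counts (CPM, linear axis from 0, scaled separately for each gene) of the 9 genes in CONTROL libraries C1 to C3 (blue) and HOXA13 libraries H1 to H3 (red), with group means as lines and the level of 3 counts dotted. In every panel the range of the CONTROL bars overlaps that of the HOXA13 bars, as for Rarg, where CONTROL runs from 65.9 to 88.2 CPM and HOXA13 from 60.8 to 103 CPM.

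Rarg and Rara were the best counted of these genes, and Rarb was one of the least. Rara (mm9, chr11:98789132-98836256, plus strand), the receptor found in most tissues, had counts of 937, 371 and 532 in CONTROL and of 285, 547 and 452 in HOXA13, each given in the order of replicates 1, 2 and 3, as for every gene that follows. The normalised levels were 66.5, 29.7 and 39.9 CPM against 21.9, 32.0 and 27.4 CPM. CONTROL replicate 1 stood above all others, and CONTROL replicate 2 lay below HOXA13 replicate 2, so the groups overlapped. The means were 45.3 ± 19.0 and 27.1 ± 5.08 CPM (SD, n = 3). The log2 fold change was -0.74 (SE 0.32, 95% interval -1.48 to -0.0018), with an unadjusted p of 0.0496 and an adjusted p of 0.354 in edgeR. Which library was left out decided this value. Without CONTROL replicate 2 it was -0.98 and the edgeR adjusted p-value was 0.0398, in a fit that called 14.2% of all its genes, and without CONTROL replicate 1 it was -0.38 with an adjusted p of 0.780. Rara lies on chromosome 11, where genes of CONTROL replicate 1 stood 0.38 above the mean of the 6 libraries in the median (log2). With each library offset by its chromosome medians the fold change of Rara was -0.56 (adjusted p 0.373, edgeR).

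Rarg (chr15:102065369-102087948, minus strand), the receptor known for early embryonic and epithelial expression, had counts of 929, 1103 and 940 in CONTROL and of 791, 1765 and 1607 in HOXA13. Its levels were 65.9, 88.2 and 70.5 CPM against 60.8, 103 and 97.4 CPM. HOXA13 replicate 1 was the lowest of the 6 and the other two HOXA13 libraries the highest. The means of 74.9 ± 11.8 and 87.2 ± 23.1 CPM (SD, n = 3) differed by a log2 fold change of 0.22 (SE 0.24, 95% interval -0.33 to 0.77), with an edgeR adjusted p-value of 0.750. Across the fits that left out a library in turn the fold change of Rarg ran from 0.06 to 0.41.

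Rarb (chr14:17263356-17651381, minus strand), the receptor that retinoic acid itself induces, was close to absent. The CONTROL libraries held counts of 24, 0 and 10 and the HOXA13 libraries counts of 0, 6 and 0. CONTROL replicates 1 and 3 reached 1.70 and 0.750 CPM and HOXA13 replicate 2 reached 0.351 CPM, while the other 3 libraries had no count, which allows up to 0.240 CPM at their depths. The 0 of CONTROL replicate 2 placed the groups in overlap. Rarb did not pass the filter. In a fit without the filter its log2 fold change was -2.71 (SE 2.35), with an edgeR adjusted p-value of 0.661. In the fits without a library that kept Rarb, its log2 fold change ran from -6.54 to -2.14 and its adjusted p from 0.263 to 0.871. The value of -6.54 came without HOXA13 replicate 2, where the remaining HOXA13 libraries are at 0 counts, so it depends on the prior count and is no bound.

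Per length of exon Rarg was the leading receptor in each library. Its level exceeded that of Rara in 6 of 6 libraries, at means over the 6 of 19.7 and 7.92 CPM per kb, and Rarb stood at 0.142 CPM per kb. In CONTROL replicate 1 the levels not scaled for length were 65.9 CPM for Rarg and 66.5 CPM for Rara. The order in that library thus rests on the exon lengths used, 4109 and 4573 bases. Rarg made up 51.6%, 76.8% and 65.7% of the summed CPM per kb of the 3 receptors in the CONTROL libraries, and 75.5%, 78.0% and 79.8% in the HOXA13 libraries. The share was lowest in CONTROL replicate 1, and CONTROL replicate 2 lay within the HOXA13 range. The ratio of Rarg to Rara per kb, examined after the values were seen, was 1.10, 3.31 and 1.97 in CONTROL and 3.09, 3.59 and 3.96 in HOXA13. The difference between the groups in this log2 ratio was 0.87, with a two-sided exact permutation p of 0.2, where 3 libraries against 3 cannot give less than 0.1.

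**Figure D2:**
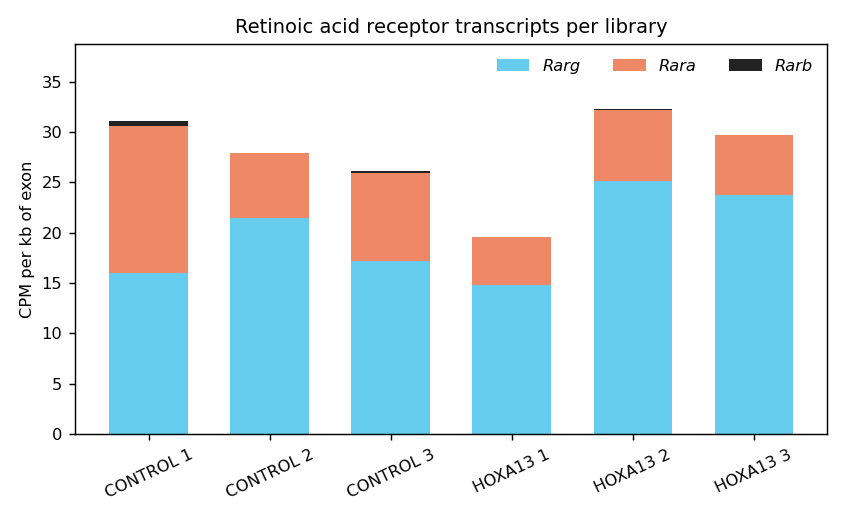
Stacked levels of the retinoic acid receptors Rarg, Rara and Rarb in each library, in CPM per kb of exon on a linear axis from 0. Rarg is the largest portion in all 6 libraries, from 51.6% to 79.8% of the sum, and Rarb is at most 1.66%.

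The binding proteins are small carriers of retinoic acid in the cytosol. Crabp2 (chr3:87752588-87757298, plus strand), which delivers retinoic acid to the receptors, had counts of 88, 112 and 115 in CONTROL and of 50, 229 and 253 in HOXA13. Normalised, these were 6.24, 8.95 and 8.62 CPM against 3.84, 13.4 and 15.3 CPM. The HOXA13 group held both the lowest library, replicate 1, and the highest ones, replicates 2 and 3. Its mean of 10.9 ± 6.16 CPM stood beside 7.94 ± 1.48 CPM in CONTROL (SD, n = 3), with the largest positive fold change of the tested 7, 0.45 on the log2 scale (SE 0.52, 95% interval -0.74 to 1.65, edgeR adjusted p 0.769). Across the fits that left out a library in turn the fold change of Crabp2 ran from 0.11 to 0.84. Its rank was not fixed, since without CONTROL replicate 2 Cyp26a1 had 1.06 and Crabp2 0.54.

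Crabp1 (chr9:54612555-54620917, plus strand), the relative of Crabp2 known for holding retinoic acid in the cytosol, had counts of 50, 69 and 22 in CONTROL and of 79, 29 and 10 in HOXA13. Levels were 3.55, 5.52 and 1.65 CPM against 6.07, 1.70 and 0.606 CPM. HOXA13 replicate 1 was the highest of all 6 libraries and HOXA13 replicate 3 the lowest, so the spread within HOXA13 covered the CONTROL values. The log2 fold change was -0.36 (SE 0.91, 95% interval -2.46 to 1.74), with an edgeR adjusted p-value of 0.908. The 2 binding proteins were thus not ordered alike over the libraries. Per kb, Crabp2 stood at 0.384 of Crabp1 in HOXA13 replicate 1 and at 4.79 and 15.3 times it in HOXA13 replicates 2 and 3, and the ratios were 1.07, 0.985 and 3.17 in CONTROL. This ratio was also examined after the values were seen, and its log2 difference of 1.03 had a two-sided exact permutation p of 0.6.

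The hydroxylases that clear retinoic acid were present at low levels. Cyp26a1 (chr19:37772298-37776018, plus strand), whose promoter is printed above, had counts of 26, 46 and 7 in CONTROL and of 61, 36 and 13 in HOXA13. These were 1.84, 3.68 and 0.525 CPM against 4.69, 2.11 and 0.788 CPM. HOXA13 replicate 1 was the highest and CONTROL replicate 3 the lowest, with the groups fully interleaved. The log2 fold change of 0.32 (SE 0.96, 95% interval -1.90 to 2.54) had an edgeR adjusted p-value of 0.926.

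Cyp26b1 (chr6:84521938-84543740, minus strand), another enzyme of the family, had counts of 52, 53 and 34 in CONTROL and of 17, 102 and 60 in HOXA13. Its levels were 3.69, 4.24 and 2.55 CPM against 1.31, 5.98 and 3.64 CPM, with the CONTROL values inside the HOXA13 range. The means were 3.49 ± 0.861 and 3.64 ± 2.33 CPM (SD, n = 3), and the log2 fold change was 0.06 (SE 0.67, 95% interval -1.49 to 1.62, edgeR adjusted p 0.983). HOXA13 replicate 1 held the highest level of Cyp26a1 and the lowest level of Cyp26b1. The remaining enzyme of the family, Cyp26c1, had 0 counts in all 6 libraries, which allows up to 0.240 CPM.

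Stra6, of retinol uptake, and Dhrs3, of the return of retinaldehyde to retinol, rested on few reads. Stra6 (chr9:57911595-58001803, plus strand), the membrane transporter for retinol, had counts of 41, 0 and 27 in CONTROL and of 16, 5 and 16 in HOXA13. CONTROL replicates 1 and 3, at 2.91 and 2.02 CPM, were the highest, and CONTROL replicate 2, at 0, was below each HOXA13 library, which had 1.23, 0.293 and 0.970 CPM. The log2 fold change was -0.99 (SE 1.39, 95% interval -4.19 to 2.22) with an edgeR adjusted p-value of 0.818, and it ran from -1.58 to -0.31 across the fits without a library. The annotated gene shares its position with Gm16131 on the same strand and with Ccdc33 on the other strand, so its count is uncertain.

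Dhrs3 (chr4:144482730-144518112, plus strand), which reduces retinaldehyde to retinol, had counts of 39, 46 and 4 in CONTROL and of 8, 11 and 7 in HOXA13. CONTROL replicates 1 and 2 reached 2.77 and 3.68 CPM, and CONTROL replicate 3, at 0.300 CPM, lay below the HOXA13 libraries at 0.615, 0.644 and 0.424 CPM. The HOXA13 values lay close together, with a mean of 0.561 ± 0.119 CPM, while CONTROL had 2.25 ± 1.75 CPM (SD, n = 3). Dhrs3 did not pass the filter. Without the filter its log2 fold change was -2.0 (SE 1.18) and its edgeR adjusted p-value 0.563, and DESeq2 gave an adjusted p-value of 0.376. Without CONTROL replicate 3, the lowest library, it passed the filter and had a log2 fold change of -2.52 with an edgeR adjusted p-value of 0.468. It was also fitted without HOXA13 replicate 1, 2 or 3, with fold changes of -2.07, -2.12 and -1.84. The edgeR adjusted p-values of those fits ran from 0.626 to 0.801.

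**Figure D3:**
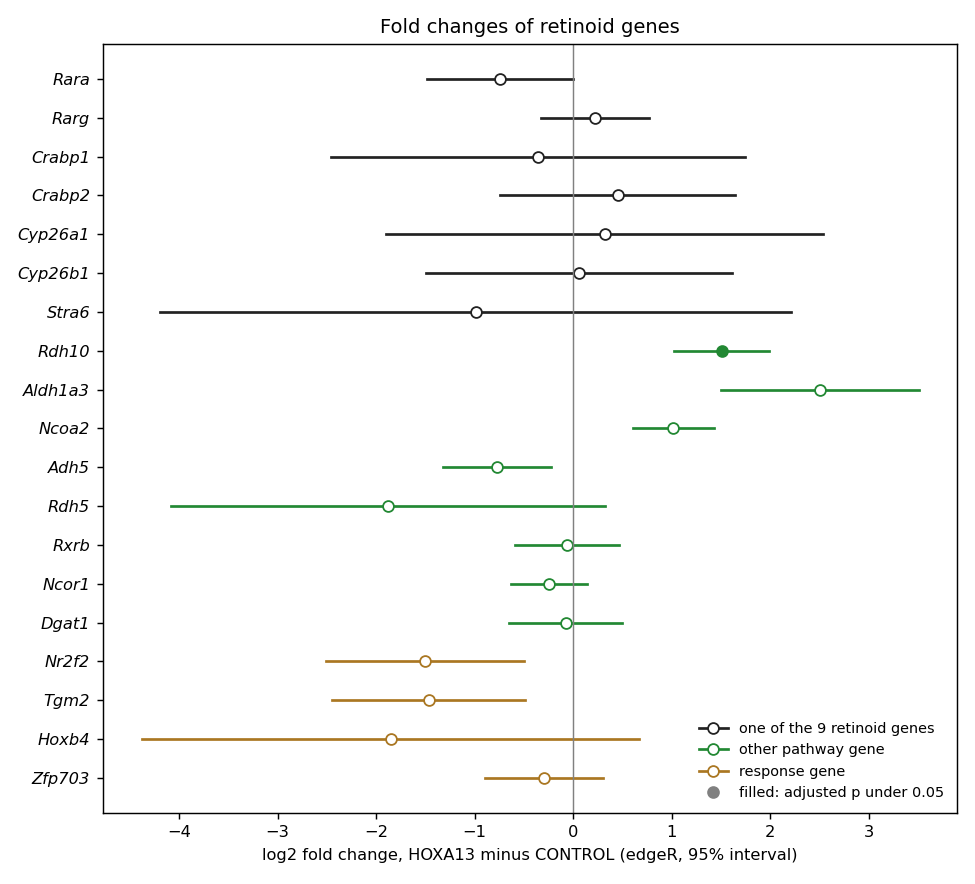
Log2 fold changes (HOXA13 minus CONTROL) with 95% intervals from edgeR for the 7 tested genes of the 9 (black), for other genes of the pathway (green) and for genes known to respond to retinoic acid (brown), with filled points for an adjusted p under 0.05. Rdh10, at 1.51, is the filled point, and 6 of the 7 black intervals cross 0, while that of Rara ends just below it, at -0.0018.

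Ordered by level per kb of exon over all 6 libraries, the genes ran from Rarg (19.7 CPM per kb) through Rara (7.92), Crabp2 (7.11), Crabp1 (3.97), Cyp26a1 (1.28), Cyp26b1 (0.775), Dhrs3 (0.480) and Stra6 (0.212) to Rarb (0.142). Only 2 steps of this order held in each library, Rarg over Rara and Crabp1 over Cyp26a1, both in 6 of 6. In CONTROL replicate 1 the step from Rarg to Rara held only after scaling by exon length. The steps from Rara to Crabp2, from Cyp26a1 to Cyp26b1, from Dhrs3 to Stra6 and from Stra6 to Rarb each held in 3 of 6 libraries, and those from Crabp2 to Crabp1 and from Cyp26b1 to Dhrs3 in 4 of 6. Neighbours other than these first 2 pairs did not differ beyond their spread.

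The libraries of a group differed among themselves in these genes, and not in the same way for all. On the log2 scale, Rara, Rarb and Stra6 were highest in CONTROL replicate 1, at 0.97, 2.34 and 1.71 above the mean of the 6 libraries, and next highest in CONTROL replicate 3. Those are the libraries with the highest sums of mesenchyme and feeder markers. In that list 12 of the 15 tested markers were lower and 3 higher in HOXA13, where 6961 of all 13600 tested genes were lower and 6639 higher. EdgeR called 0 of the 15, where it called 0.309% of all tested genes. The sums were 2706 to 10149 CPM in CONTROL and 2238 to 5733 CPM in HOXA13. A large part of them was Fn1, one of the 3 higher markers, at 2033 to 3728 CPM in CONTROL and 1997 to 4976 CPM in HOXA13. Vim, one of the 12 lower ones, had means of 2825 CPM in CONTROL and 453 CPM in HOXA13. The gate selected cells that stained for CXCR4 and for E-cadherin, and these were then cultured for a further day. How many other cells remained in each library was not measured. At the RNA level, Vim peaked in CONTROL replicate 1 (4351 CPM), the library with the least Cdh1 (192 CPM) and Epcam (18.7 CPM). The part of mesenchyme and feeder cells in the levels of Rara, Rarb and Stra6 was not tested.

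Crabp1 and Cyp26a1 had another profile. Both were highest in HOXA13 replicate 1, at 1.26 and 1.33 above the mean, and next in CONTROL replicate 2, at 1.13 and 1.00. These libraries also held the largest sums of pluripotency markers, 630 and 1254 CPM, with 113 to 416 CPM in the other 4. Of the 8 pluripotency markers 3 were higher and 5 lower in HOXA13, beside 6639 higher and 6961 lower of all 13600 tested genes. EdgeR called 0 of the 8, where it called 0.309% of all tested genes, and none was at 0 in all libraries. Their part in these levels was not tested. Rarg, Crabp2 and Cyp26b1 shared another profile, lowest in HOXA13 replicate 1 for each and highest in HOXA13 replicate 2 or 3. Dhrs3 was highest in CONTROL replicates 1 and 2.

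**Figure D4:**
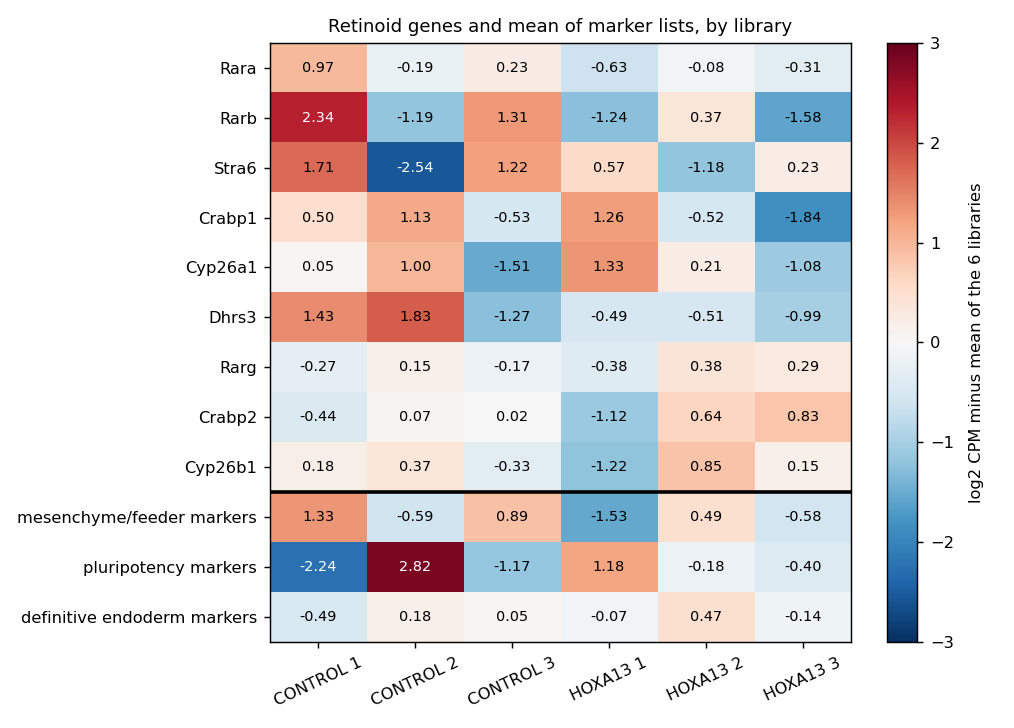
Log2 CPM of the 9 genes in each library minus the gene's mean over the 6 libraries, with the mean of the same quantity over 3 marker lists below the line (red above and blue below the mean). Rarb and Stra6 are highest in CONTROL 1, at 2.34 and 1.71, while Crabp1 and Cyp26a1 peak in HOXA13 1, at 1.26 and 1.33, where the mesenchyme and feeder markers are lowest, at -1.53.

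Patterns most like those of 2 of the genes were looked up over the 6 libraries, by the root mean square difference of centred log2 CPM among tested genes of at least 5 CPM. Nearest to Crabp2, which had the largest positive fold change of the 7 tested genes in the edgeR fit of all libraries, were Capn5, Ccng2 and Zfp36. The differences were 0.19, 0.26 and 0.26. Capn5 stood at 7.52, 11.7 and 12.6 CPM in the CONTROL and at 6.76, 15.8 and 19.6 CPM in the HOXA13 libraries. Nearest to Stra6, which had the largest negative one of these 7 in that fit, were Zfp287, 3110039I08Rik and Trim21, with differences of 0.46, 0.60 and 0.62. These describe likeness over 6 libraries only.

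Other genes that handle vitamin A and retinoic acid were counted from a list of 37. Of these 23 were tested, 1 was called higher, Rdh10, and 0 lower, where edgeR called 0.265% of all tested genes higher and 0.0441% lower. At an unadjusted p under 0.05, 3 were higher and 2 lower, where 8.05% of all tested genes were higher and 6.02% lower. The median log2 fold change was -0.09. DESeq2, which called 5.05% of the genes it gave an adjusted p, called 3 of the 34 it fitted, all higher, and gave some of the 34 no adjusted p. Without CONTROL replicate 2 edgeR called 6 of 25, of which 3 were higher and 3 lower, where that fit called 14.2% of all genes it tested. Rbp2, Ttr and Cyp26c1 had no count in any library.

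In edgeR the smallest p-values of the list were those of Rdh10, Aldh1a3 and the coactivator Ncoa2. Of the tested genes of retinol oxidation and retinaldehyde reduction 3 were higher and 4 lower in HOXA13. Of those of retinaldehyde oxidation 2 were higher and 1 lower. Rdh10 (chr1:16095855-16123815, plus strand), which oxidises retinol to retinaldehyde, had counts of 830, 603 and 955 in CONTROL and of 1778, 3058 and 3183 in HOXA13. Each HOXA13 library was above each CONTROL library, as was the case for 11.5% of all tested genes. The CONTROL mean was 59.6 ± 11.7 CPM and that of HOXA13 170 ± 29.4 CPM (SD, n = 3). Rdh10 rose by 1.51 on the log2 scale (SE 0.21), and the adjusted p was 0.0461 in edgeR and 5.26e-07 in DESeq2. Rdh10 lies on chromosome 1, where the median fold change was 0.54 (log2). The median deviation of genes there was -0.31, -0.33 and -0.22 in CONTROL and 0.31, 0.26 and 0.31 in HOXA13 (log2). This shift went with the groups, and its cause was not tested. With the chromosome offset the fold change of Rdh10 was 0.92 and its edgeR adjusted p-value 0.137. Among genes with a mean of at least 50 counts its edgeR adjusted p-value was 0.0517. With a replicate block it was 0.165, at a log2 fold change of 1.51. Without CONTROL replicate 1 or 3, or without any HOXA13 replicate, the edgeR adjusted p-value of Rdh10 was between 0.0737 and 0.341, and without CONTROL replicate 2 it was 0.00418.

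Aldh1a3 (chr7:73535778-73572403, minus strand), which makes retinoic acid from retinaldehyde, had counts of 171, 529 and 307 in CONTROL and of 1435, 2480 and 3041 in HOXA13. Its groups were separate as well, at 25.8 ± 15.3 and 147 ± 37.1 CPM (SD, n = 3). The log2 fold change of 2.51 (SE 0.43, 95% interval 1.51 to 3.51) had an edgeR adjusted p-value of 0.0749, short of the threshold, and DESeq2 gave 3.67e-07. Aldh1a3 also passed in edgeR without the filter (adjusted p 0.0155), with the edgeR 4 method (0.0366) and in limma voom (0.00110). In edgeR with the chromosome offset (0.0954) or a replicate block (0.157) it did not. Without CONTROL replicate 2 the edgeR adjusted p-value was 0.00129, and across the other fits that left out a library it did not pass. Aldh1a2 catalyses the same step and is shown for that reason, chosen after its values were seen. It had counts of 281, 17 and 141 in CONTROL and of 49, 70 and 73 in HOXA13, with a log2 fold change of -1.37 (SE 0.79, edgeR adjusted p 0.502). Like Stra6 it was highest in CONTROL replicates 1 and 3 and lowest in CONTROL replicate 2, and its value depended on which of them were included. The log2 fold change was -1.91 (edgeR adjusted p 0.0155) without CONTROL replicate 2, -0.56 (adjusted p 0.931) without CONTROL replicate 1 and -0.80 (adjusted p 0.825) with a replicate block.

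**Figure D5:**
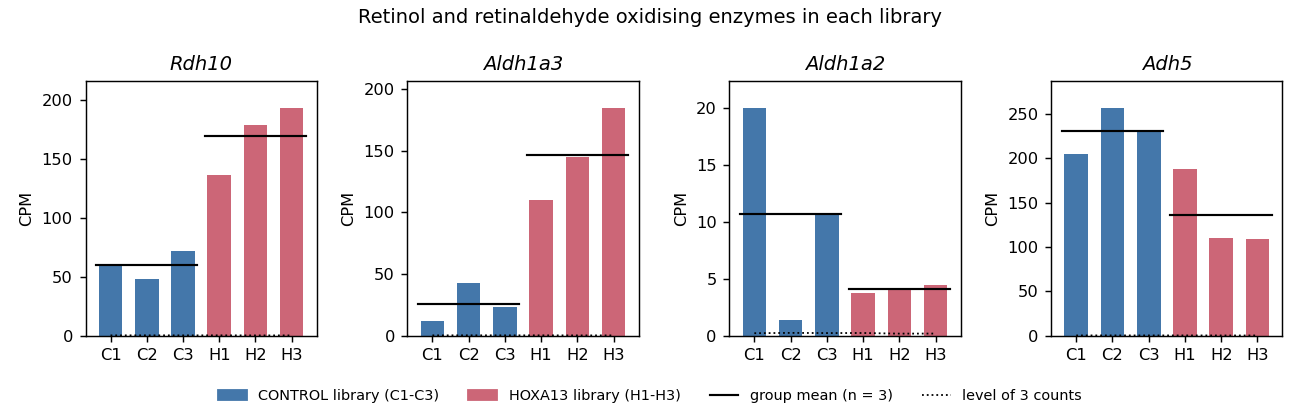
Normalised counts (CPM, linear axes from 0) of the retinol oxidising enzymes Rdh10 and Adh5 and the retinaldehyde oxidising enzymes Aldh1a3 and Aldh1a2 in CONTROL libraries C1 to C3 (blue) and HOXA13 libraries H1 to H3 (red), with group means as lines and the level of 3 counts dotted. Rdh10 and Aldh1a3 have separate groups with HOXA13 above, at means of 170 and 147 CPM, Adh5 has them with CONTROL above, and those of Aldh1a2 overlap.

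Among other steps of the pathway, Adh5, an alcohol dehydrogenase, had a CONTROL mean of 231 ± 25.7 CPM and a HOXA13 mean of 136 ± 45.0 CPM (SD, n = 3). Its groups were separate, with a log2 fold change of -0.77 (edgeR adjusted p 0.202). The adjusted p of Adh5 was 0.0550 in DESeq2 and 0.00547 in limma voom, where the fold change was -0.95. Rdh5, a retinol dehydrogenase of the eye, had separate groups at 21 to 31 counts in CONTROL and 3 to 12 counts in HOXA13 (edgeR adjusted p 0.437). Ncoa2, a coactivator of nuclear receptors that also lies on chromosome 1, had 51.3 ± 8.53 and 104 ± 5.03 CPM (SD, n = 3), with a fold change of 1.02 (log2, edgeR adjusted p 0.0750). With the chromosome offset the fold change of Ncoa2 was 0.42 and its edgeR adjusted p 0.344. Without that offset its adjusted p was 0.000604 in DESeq2, and 0.00840 in edgeR when CONTROL replicate 2 was left out. Of the RXR partners of the receptors, Rxrb had the highest level (CPM), with means of 50.1 ± 9.28 and 47.9 ± 10.1 CPM (SD, n = 3) in CONTROL and HOXA13, and none of the 2 tested partners was called. The corepressor Ncor1 (log2 fold change -0.24) and the retinol esterifying enzyme Dgat1 (-0.07), each the gene of its role with the highest CPM (not scaled for length), had edgeR adjusted p-values of 0.586 and 0.934. Bco1, which cleaves carotene, had at most 6 counts in a library.

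Genes known to be induced by retinoic acid in embryonic cells formed a further list of 20, of which 15 were tested. None was called in edgeR (0 of 15), 0 were higher and 2 lower at an unadjusted p under 0.05, where 6.02% of all tested genes were lower, and the median log2 fold change was -0.30. That median was -0.56 over the 19 genes fitted without the filter, and it ran from -0.56 to -0.15 when a library was left out. DESeq2, which called 1.94% of its genes lower, called 2 of the 19 it fitted lower, and again gave some no adjusted p. Without CONTROL replicate 2 edgeR also called 2 lower, of 17, where that fit called 890 of 14084 genes lower. Among the 15 tested, the groups did not overlap in 3, each lower in HOXA13, where 8.52% of tested genes were. Rarres1, which did not pass the filter and was not tested, had counts of 5, 0 and 0 in CONTROL and of 7, 13 and 39 in HOXA13, so its groups did not overlap either, with HOXA13 above. Nr2f2, an orphan nuclear receptor of mesenchyme, had 12.4 ± 2.75 and 4.36 ± 1.83 CPM (SD, n = 3), with a fold change of -1.51 (log2, SE 0.44) and adjusted p-values of 0.179 in edgeR and 0.0356 in DESeq2. Tgm2, a transglutaminase, had 9.34 ± 1.01 and 3.37 ± 1.07 CPM (SD, n = 3), with a fold change of -1.47 (log2, SE 0.43) and adjusted p-values of 0.180 in edgeR and 0.0407 in DESeq2. Hoxb4 had counts of 304, 127 and 129 in CONTROL and of 0, 104 and 87 in HOXA13, with an edgeR adjusted p-value of 0.515. Zfp703, with the highest CPM among the other transcription factors of the list, had a log2 fold change of -0.30, and its edgeR adjusted p-value was 0.686. Of the 9 genes of this list with a promoter window none held a repeat of half-sites, and of the 27 pathway genes with one only Bco1 did, with 1 base between the half-sites.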

How the data were processed

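RNA of 3 CONTROL and 3 HOXA13 samples was analysed, grouped by the sample titles. Each sample has a list of raw counts, 1 per gene symbol, deposited by the authors and made from strand-specific poly-A libraries. The submitters' processing notes name bcl2fastq 2.17, TopHat2 2.0.14, HTSeq 0.6.1p1 and the mouse genome build mm9. Which annotation and strand option were used, and how reads with several alignments were handled, is not given in the sources used here, so counts of overlapping and of related genes are uncertain.

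In R 4.3.3, genes were filtered with filterByExpr (minimum count 10, minimum total 15) and normalised by TMM. Groups were compared with edgeR 4.0.16 (glmQLFit and glmQLFTest, group alone, Benjamini-Hochberg adjustment over 13600 genes, threshold 0.05). SEs come from the F statistic, and the intervals have a confidence level of 95%. Log2 CPM used a prior count of 2. Exon lengths and positions are those of GENCODE M1 on mm9. The code was tested on simulated data.

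The members and lists were chosen with earlier results of these data known. Named were all 9 genes, the other listed genes that were called or whose groups did not overlap, the gene with the highest mean CPM in each role (1 is not reported here), and the 3 genes most like the members with the largest positive and negative fold change. Alternatives were DESeq2 1.42.0, the edgeR 4 method, limma 3.58.1 voom with quality weights, RLE scaling, other filters, a replicate block, an offset by chromosome medians and leaving out each library. P-values measure only the spread between these samples.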

Additional observations from a re-analysis of the deposited data

How the results depend on the processing

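The 9 retinoid genes gave 0 calls in edgeR, and 0 in each alternative except the fits without a library, which gave 0 to 1 (Rara without CONTROL replicate 2). Over all genes 42 of 13600 were called. The count was 722 of 14298 with DESeq2, 106 of 13600 with the edgeR 4 method and 2101 of 13600 with limma voom. It was 163 of 17697 without a filter and 9 of 11292 at a mean of at least 50 counts. With the chromosome offset it was 0 of 12565 (1668 at an unadjusted p under 0.05 in edgeR). Without a library it ran from 0 to 2006, the latter of 14084. Of the other pathway genes 1 of 23 was called in edgeR. DESeq2 called 3 of the 34 it fitted, the edgeR 4 method 3 of 23 and limma voom 6 of 23. The count was 3 of 34 without a filter and 0 of 19 at a mean of at least 50 counts. With the chromosome offset it was 0 of 23. Without a library it ran from 0 to 6, the latter of 25. Of the response genes 0 of 15 were called in edgeR. DESeq2 called 2 of the 19 it fitted and limma voom 2 of 15. Without a library the count ran from 0 to 2, the latter of 17. The highest counts without a library came without CONTROL replicate 2. The cause was not tested.

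Replicate numbers come only from the titles. Same-numbered libraries had correlations of -0.208, -0.269 and 0.0950 in their deviations from the group means, so they shared only a number. With a replicate block 0 genes were called (1392 at an unadjusted p under 0.05), 0 of the pathway list, and the log2 fold change of Cyp26b1 turned to -0.13. Without a library in turn, fold changes ran from -0.52 to 0.45 for Cyp26b1, from -0.49 to 1.06 for Cyp26a1 and from -1.64 to 0.10 for Crabp1, so their signs are not fixed by these data. Rara, Rarg, Crabp2 and Stra6 kept their direction in every alternative that could be fitted. Rarb and Dhrs3, with few counts and a wide spread within CONTROL, did not pass the filter and were fitted without it, in DESeq2 and in some of the fits without a library.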
